A study of Mus musculus with 8 samples.

Results

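The inhibin, activin and AMH axis was described here as 10 genes, chosen by symbol from the 57690 rows of a table of testis transcripts: the subunit genes Inha, Inhba and Inhbb, the binding protein genes Fst and Fstl3, the hormone gene Amh, and the receptor genes Amhr2, Acvr2a, Acvr2b and Acvr1b. All 10 symbols were found, and none was repeated. The tissue was testis of C57BL/6 mice aged 8 weeks, and bulk RNA was sequenced from 4 libraries per group. The first group had received 2 intraperitoneal doses of 200 µg of an antibody against PD-L1, and the other the same number and amount of an IgG2b isotype control. Testes were taken 7 days after treatment. No genetic change is given for either group, and the clone of the antibody is not given in the sources used here. Whether each library is a separate animal is not stated in the labels, and a p-value here reflects the spread among libraries alone, some or all of which could be technical.

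Inhibins and activins are dimers built from shared subunits. An alpha subunit joined to a beta subunit is an inhibin, which lowers the release of follicle-stimulating hormone from the pituitary, and a pair of beta subunits is an activin, which raises it and signals through SMAD proteins. In the testis, Sertoli cells, the somatic cells that nurse the germ cells, are the main source of inhibin B, the dimer of the alpha and beta B subunits. Follistatin and follistatin-like 3 bind activins and block their signal. Anti-Müllerian hormone (AMH), also a product of Sertoli cells, causes the Müllerian ducts to regress in the male fetus, and its level in the testis falls at puberty.

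Levels are given in TPM, a measure of transcript level that corrects for the length of a gene, and different genes can therefore be compared. Differences are given on the scale of log2(TPM + 1), anti-PD-L1 minus IgG, a scale on which low genes appear to change less than they do. TPM keeps no read depth, so no counting intervals are given. The anti-PD-L1 libraries held between 29386 and 31322 rows above 0 TPM and the IgG libraries between 29064 and 31572. Anti-PD-L1 replicate 1 and IgG replicate 4 stood apart from the other 6 libraries with the highest numbers, 31322 and 31572. Markers of the tissue were present: 12 Sertoli cell markers together reached between 1520 and 2149 TPM in the anti-PD-L1 libraries and between 1579 and 1853 TPM in the IgG libraries. Most of that sum was Clu, between 887 and 1243 TPM over the 8 libraries, and Ctsl, between 351 and 549 TPM. The lowest of the Sertoli markers, Fshr, lay between 1.31 and 2.21 TPM. The 6 markers of pituitary gonadotropes and ovarian granulosa cells summed to between 19.2 and 21.7 TPM after anti-PD-L1 and to between 18.9 and 24.1 TPM after IgG. Of these, Lhb lay between 14.04 and 16.3 TPM and Cyp19a1 between 3.55 and 7.71 TPM over the 8 libraries, Cga, Gnrhr and Foxl2 did not exceed 0.28 TPM, and Fshb was listed at 0 in every library.

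Over all 8 libraries the axis was led by Amhr2, which encodes the type II receptor of AMH, at a mean of 169 TPM, and by Inha, the gene of the inhibin alpha subunit, at 93.7 TPM. Amhr2 was above 94.2% and Inha above 90.0% of the 20343 genes that averaged 1 TPM or more. The remaining genes lay far lower, with Inhbb at 11.6 TPM, Fstl3 at 10.03 TPM, Acvr1b at 7.46 TPM, Acvr2a at 6.50 TPM, Amh at 2.06 TPM, Acvr2b at 1.97 TPM, Fst at 0.555 TPM and Inhba at 0.122 TPM. The ranges over the 8 libraries did not overlap between Amhr2 and Inha, between Inha and Inhbb, between Acvr2a and Amh, or between Acvr2b and Fst. The other neighbours in this order overlapped in range, although Inhbb exceeded Fstl3 in 8 of 8 libraries, Fstl3 exceeded Acvr1b in 8 of 8, and Fst exceeded Inhba in 8 of 8. Acvr1b was above Acvr2a in 6 of 8 libraries and Amh above Acvr2b in 5 of 8, so those 2 pairs had no fixed order.

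**Figure D1:**
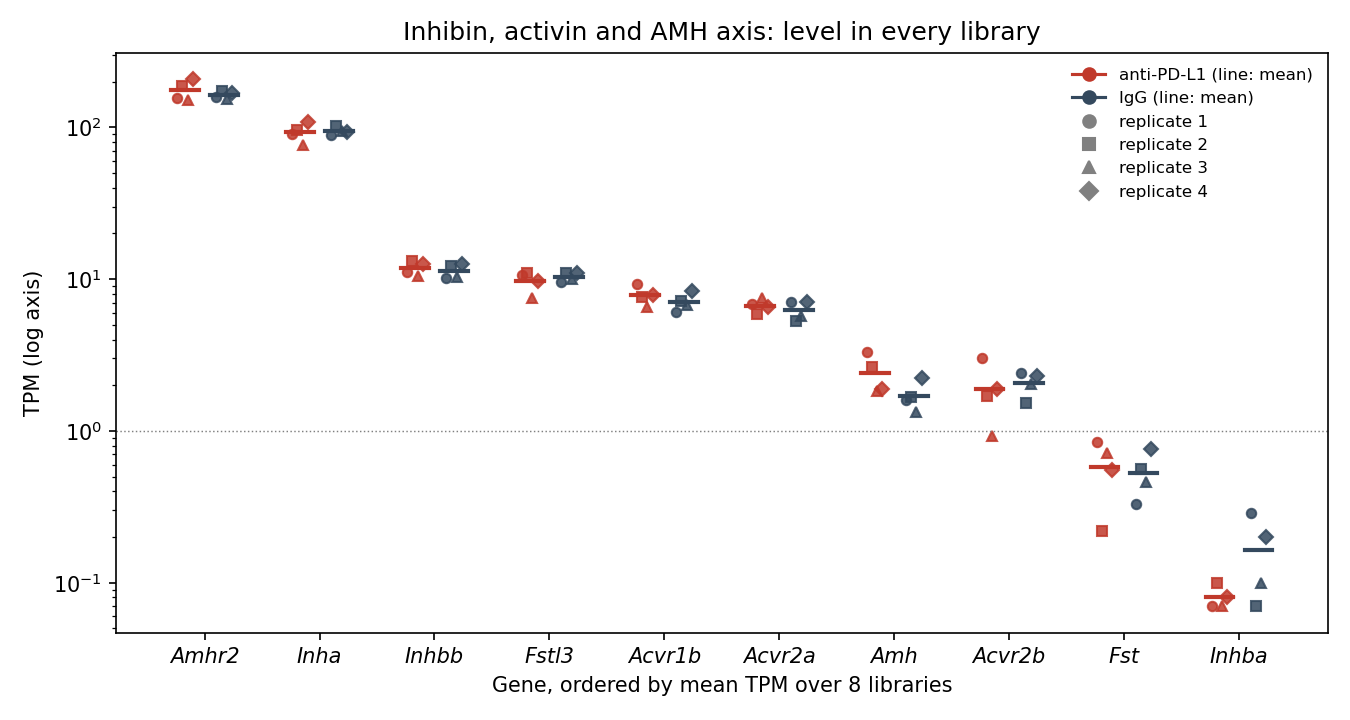
Level of the 10 genes in each library, in TPM on a log axis, with anti-PD-L1 libraries in red left of IgG libraries in dark blue; marker shapes are replicates, short lines are group means, and the dotted line is 1 TPM, the mean a gene needed to be tested. The step between the means of Inha (93.7 TPM) and Inhbb (11.6 TPM) is among the wide ones, Amh (2.06 TPM) and Acvr2b (1.97 TPM) lie close together, and the groups overlap for every gene.

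None of these genes passed the test of a difference between the groups. Of 8 members that averaged 1 TPM or more, 0 passed an adjusted p of 0.05 in limma with Benjamini-Hochberg adjustment over all genes, where 0 of 20343 genes (0%) did. At an unadjusted p under 0.05 the count was 0 of 8, against 1063 of all genes tested (5.23%). The 4 anti-PD-L1 libraries overlapped the 4 IgG libraries for all 10 members, and 609 of all genes tested (2.99%) had groups that did not overlap. Log2 differences of the 8 tested members ranged from -0.13 to 0.32, 5 above 0 and 3 below, with a median of 0.070 beside a median of 0.026 over all genes tested. The typical size, as the median of the absolute differences, was 0.096 for the members and 0.088 for all genes.

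The sequences in front of the 2 beta subunit genes and of the most abundant receptor gene, Amhr2, are shown as a description. Each window runs from 250 bases before to 50 bases after the start of the gene in RefSeq on GRCm38.p6, the assembly also called mm10, on the gene's own strand. Capitals mark AGGTCA on either strand, and likewise the letters TATAAA on either strand and the letters GGGCGG on either strand.
Amhr2, chr15:102445117-102445416, plus strand: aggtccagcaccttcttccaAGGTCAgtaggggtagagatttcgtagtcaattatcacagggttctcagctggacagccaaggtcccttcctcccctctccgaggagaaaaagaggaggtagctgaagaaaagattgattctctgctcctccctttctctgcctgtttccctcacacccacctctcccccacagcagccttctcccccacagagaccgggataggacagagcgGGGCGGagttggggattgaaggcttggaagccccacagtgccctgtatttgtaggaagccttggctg
Inhbb, chr1:119422199-119422498, minus strand: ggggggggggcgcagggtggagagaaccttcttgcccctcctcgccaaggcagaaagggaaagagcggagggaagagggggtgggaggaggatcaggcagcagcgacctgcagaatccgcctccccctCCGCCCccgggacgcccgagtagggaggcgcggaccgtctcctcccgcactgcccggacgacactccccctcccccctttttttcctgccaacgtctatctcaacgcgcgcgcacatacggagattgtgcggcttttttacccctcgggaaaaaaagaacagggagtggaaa
Inhba, chr13:16011601-16011900, plus strand: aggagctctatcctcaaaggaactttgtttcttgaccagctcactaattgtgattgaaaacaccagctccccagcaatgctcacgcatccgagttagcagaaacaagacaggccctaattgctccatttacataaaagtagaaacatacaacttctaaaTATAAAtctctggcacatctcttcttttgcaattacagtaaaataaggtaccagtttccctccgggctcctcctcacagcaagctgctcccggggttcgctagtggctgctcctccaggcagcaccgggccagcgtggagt

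The GC content was 55.3% in the Amhr2 window, 64.3% in the Inhbb window and 47.7% in the Inhba window, beside a median of 52.7% over 32851 windows. AGGTCA, a sequence that nuclear receptors bind, was in the Amhr2 window 230 bases before the start and in 16.3% of all windows. GGGCGG, the core of a GC box, was in the Amhr2 and Inhbb windows and in 35.7% of all windows, with the Inhbb match on the opposite strand. The letters TATAAA were in the Inhba window 91 bases before the start and in 13.6% of all windows. Windows were at hand for 8 of the 10 members. AGGTCA was in 3 of them (Inha, Fstl3 and Amhr2), TATAAA in 2 (Fstl3 and Inhba) and GGGCGG in 6 (Inhbb, Acvr2a, Acvr2b, Fstl3, Acvr1b and Amhr2). The Inha window starts from a RefSeq start that lies 532 bases inside the GENCODE gene and is not shown. These matches describe letters in the windows and do not show binding, and no relation of a match to the level of a gene was tested.

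Among the ligand subunits, Inha carried the bulk of the transcripts. Inha (ENSMUSG00000032968, mm10 chromosome 1, 75507077 to 75510366, plus strand) was at 89.8, 95.5, 77.0 and 108 TPM in anti-PD-L1 libraries 1 to 4 and at 88.8, 101, 95.1 and 93.8 TPM in IgG libraries 1 to 4. Both the lowest and the highest of the 8 values were in the anti-PD-L1 group, whose spread enclosed that of the IgG group. The means were 92.5 ± 12.8 TPM after anti-PD-L1 and 94.8 ± 5.23 TPM after IgG (SD, n = 4 each). The log2 difference was -0.044 (SE 0.096, 95% confidence interval -0.26 to 0.18, adjusted p = 0.999 in limma with Benjamini-Hochberg adjustment), and without anti-PD-L1 replicate 3, the lowest library, it was 0.040.

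Inhbb encodes the beta B subunit, the partner of the alpha subunit in inhibin B. Inhbb (ENSMUSG00000037035, mm10 chromosome 1, 119415465 to 119422248, minus strand) was at 11.1, 13.2, 10.5 and 12.5 TPM in the anti-PD-L1 libraries and at 10.2, 12.1, 10.3 and 12.7 TPM in the IgG libraries. The values interleaved, with means of 11.8 ± 1.28 TPM after anti-PD-L1 and 11.3 ± 1.26 TPM after IgG (SD, n = 4 each). Its log2 difference was 0.060 (SE 0.11, 95% confidence interval -0.18 to 0.30), and once a smooth trend on GC content and length was removed it was -0.030.

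Inhba encodes the beta A subunit, which forms inhibin A and activin A. Inhba (ENSMUSG00000041324, mm10 chromosome 13, 16011851 to 16031621, plus strand) was the lowest of the 10 genes and was not tested. It was at 0.07, 0.10, 0.07 and 0.08 TPM in the anti-PD-L1 libraries and at 0.29, 0.07, 0.10 and 0.20 TPM in the IgG libraries. IgG replicates 1 and 4 were above every other library and IgG replicate 2 was level with the lowest, so the groups overlapped at levels close to 0. The beta B gene therefore made up nearly all of the beta subunit transcripts, between 99.3% and 99.4% of the sum of both genes in the anti-PD-L1 libraries and between 97.2% and 99.4% in the IgG libraries. The span of Inhba overlaps that of the pseudogene B230303A05Rik on the opposite strand by 11573 bases, with 0 exonic bases in common. The strand setting of the quantification is not given in the sources used here.

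Within each library, Inha outnumbered both beta subunit genes together. The ratio of Inha to the sum of Inhba and Inhbb was 8.04, 7.15, 7.31 and 8.56 in the anti-PD-L1 libraries and 8.50, 8.33, 9.13 and 7.29 in the IgG libraries. The groups overlapped, with means of 7.77 ± 0.66 after anti-PD-L1 and 8.31 ± 0.76 after IgG (SD, n = 4 each). Such a ratio does not depend on how a library was scaled, and it is given with no test.

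The activin-binding proteins were represented almost wholly by Fstl3, the follistatin-like gene. Fstl3 (ENSMUSG00000020325, mm10 chromosome 10, 79777272 to 79782630, plus strand) was at 10.6, 10.9, 7.56 and 9.69 TPM in the anti-PD-L1 libraries and at 9.59, 10.9, 9.94 and 11.0 TPM in the IgG libraries. Anti-PD-L1 replicate 3 was the lowest of the 8, and the other 7 lay close together. On the log2 scale Fstl3 differed by -0.099 (SE 0.12, 95% confidence interval -0.37 to 0.17), and without that library it was 0.0036. Fstl3 shares 1157 exonic bases with Prss57 on the opposite strand, which was at 0.03 TPM in anti-PD-L1 replicate 3 and listed at 0 in the other 7 libraries.

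Fst, the gene of follistatin (ENSMUSG00000021765, mm10 chromosome 13, 114452290 to 114458951, minus strand), was below 1 TPM in every library and was not tested. It was at 0.85, 0.22, 0.71 and 0.55 TPM in the anti-PD-L1 libraries and at 0.33, 0.56, 0.46 and 0.76 TPM in the IgG libraries, so the anti-PD-L1 values again enclosed the IgG values. The share of Fstl3 in the sum of both genes lay between 91.4% and 98.0% in the anti-PD-L1 libraries and between 93.5% and 96.7% in the IgG libraries. Set against the beta subunits, the binding protein transcripts were about as abundant: the ratio of Fst plus Fstl3 to Inhba plus Inhbb was 1.02, 0.833, 0.785 and 0.813 in the anti-PD-L1 libraries and 0.949, 0.945, 0.998 and 0.914 in the IgG libraries. Replicates 2, 3 and 4 of the anti-PD-L1 group lay below the whole IgG group and replicate 1 lay above it, and no test was made.

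**Figure D2:**
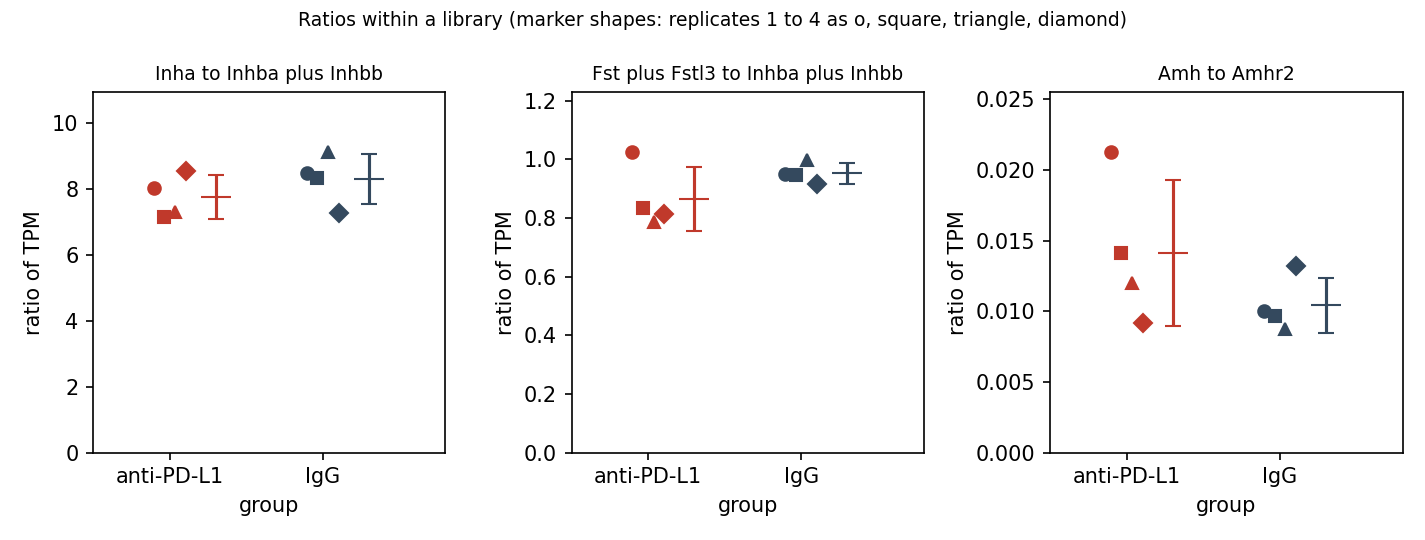
Ratios of TPM within each library, from 0, for anti-PD-L1 (red, left) and IgG (dark blue, right); marker shapes are replicates and the bars beside them are the mean and SD of 4 libraries. In all 3 panels the groups overlap, and anti-PD-L1 replicate 1 (circle) has the highest ratio of Fst plus Fstl3 to the beta subunits, at 1.02, and of Amh to Amhr2, at 0.0213.

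Amh had the widest difference among the tested members, and it did not pass. Amh (ENSMUSG00000035262, mm10 chromosome 10, 80805243 to 80807648, plus strand) was at 3.31, 2.65, 1.82 and 1.90 TPM in the anti-PD-L1 libraries and at 1.6, 1.67, 1.34 and 2.22 TPM in the IgG libraries. The highest value of each group was in the library of that group with the most rows above 0 TPM, anti-PD-L1 replicate 1 and IgG replicate 4, and the part of this in the difference was not tested further than by leaving them out. The means were 2.42 ± 0.70 TPM after anti-PD-L1 and 1.71 ± 0.37 TPM after IgG (SD, n = 4 each). The log2 difference was 0.32 (SE 0.18, 95% confidence interval -0.090 to 0.74, adjusted p = 0.999 in limma with Benjamini-Hochberg adjustment). Without both libraries that stand apart it was 0.29 (SE 0.14, adjusted p = 0.565 in limma), without anti-PD-L1 replicate 1 alone 0.21, and with a smooth trend on GC content and length removed 0.091. Of the 10 members, Amh had the highest GC content over its longest annotated transcript, 65.4%. GC content and length were removed together, and the part of either in the difference of Amh was not tested.

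Amhr2 (ENSMUSG00000023047, mm10 chromosome 15, 102445367 to 102454633, plus strand) was at 156, 187, 152 and 207 TPM in the anti-PD-L1 libraries and at 159, 172, 153 and 168 TPM in the IgG libraries. Anti-PD-L1 replicates 2 and 4 were above every IgG library and replicate 3 was the lowest of all, so the groups overlapped. The means were 175 ± 26.3 TPM after anti-PD-L1 and 163 ± 8.72 TPM after IgG (SD, n = 4 each). Amhr2 differed by 0.093 on the log2 scale (SE 0.10, 95% confidence interval -0.13 to 0.32), and without anti-PD-L1 replicate 4 it was 0.010. Transcripts of the receptor thus far exceeded those of the hormone in every library. The ratio of Amh to Amhr2 was 0.0213, 0.0142, 0.0120 and 0.0092 in the anti-PD-L1 libraries and 0.0101, 0.0097, 0.0088 and 0.0132 in the IgG libraries, again with overlap.

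The 3 activin receptor genes showed no difference past the test either. Acvr1b, the type I receptor that phosphorylates SMAD2 and SMAD3 (ENSMUSG00000000532, mm10 chromosome 15, 101174067 to 101213684, plus strand), was at 9.32, 7.64, 6.58 and 7.85 TPM in the anti-PD-L1 libraries and at 6.07, 7.15, 6.77 and 8.33 TPM in the IgG libraries. As with Amh, the highest value of each group was in anti-PD-L1 replicate 1 and IgG replicate 4. Acvr1b differed by 0.13 on the log2 scale (SE 0.13, 95% confidence interval -0.16 to 0.42), and 0.12 without both of those libraries. It was 0.053 without anti-PD-L1 replicate 1 alone and 0.20 without IgG replicate 4 alone.

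Acvr2a and Acvr2b encode the type II receptors that bind activin first. Acvr2a (ENSMUSG00000052155, mm10 chromosome 2, 48814109 to 48903269, plus strand) was at 6.86, 5.85, 7.49 and 6.59 TPM in the anti-PD-L1 libraries and at 7.09, 5.31, 5.74 and 7.08 TPM in the IgG libraries, a log2 difference of 0.080 (SE 0.12). It was highest in anti-PD-L1 replicate 3, the library in which Amhr2, Inha, Fstl3 and Acvr2b were lowest. Acvr2a, with a deposited length of 5686 bases, shares 446 exonic bases with Orc4 on the opposite strand. As the strand setting is not given in the sources used here, it is unknown whether reads of that part were told apart. Orc4, a subunit of the origin recognition complex, was at 23.1 ± 6.32 TPM after anti-PD-L1 and 18.6 ± 6.54 TPM after IgG (SD, n = 4 each).

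Acvr2b (ENSMUSG00000061393, mm10 chromosome 9, 119402118 to 119434995, plus strand) was at 3.0, 1.70, 0.92 and 1.89 TPM in the anti-PD-L1 libraries and at 2.40, 1.53, 2.03 and 2.31 TPM in the IgG libraries. The anti-PD-L1 group held both extremes. Between the groups Acvr2b differed by -0.13 on the log2 scale (SE 0.23, 95% confidence interval -0.65 to 0.38), and leaving out anti-PD-L1 replicate 3 made it 0.047, whereas leaving out anti-PD-L1 replicate 1 made it -0.31. Acvr2a made up between 69.6% and 89.1% of the sum of both type II receptor genes in the anti-PD-L1 libraries and between 73.9% and 77.6% in the IgG libraries.

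The anti-PD-L1 libraries were more spread than the IgG libraries for most of the tested members. The coefficient of variation after anti-PD-L1 and after IgG was 14.97% and 5.34% for Amhr2, 13.8% and 5.51% for Inha, 15.6% and 6.88% for Fstl3, 29.0% and 21.7% for Amh, 45.7% and 18.9% for Acvr2b, and 14.4% and 13.4% for Acvr1b. It ran the other way for Inhbb, at 10.8% and 11.1%, and for Acvr2a, at 10.1% and 14.6%. These differences in spread were not tested. Neither the share of all genes tested that were more spread after anti-PD-L1 nor the share lowest in anti-PD-L1 replicate 3 is given here. Among the Sertoli markers the spread also went both ways, at 15.3% and 5.03% for Clu and at 13.5% and 31.1% for Dhh. Some of those markers, such as Clu and Wt1, were lowest in anti-PD-L1 replicate 3 as well, and others, such as Dhh, were not. Neither trait is thus shown to be particular to the members. Of the 8 tested members, 4 had their lowest value in anti-PD-L1 replicate 3, namely Amhr2, Inha, Fstl3 and Acvr2b. That library also had the lowest level of the Sertoli markers, 0.18 below the mean of the 8 libraries as a mean of log2 values, and anti-PD-L1 replicate 4, with the highest Amhr2 and Inha, had the highest, 0.18 above it. IgG replicate 3 had a Sertoli mean nearly as low, at -0.16, and there Amhr2 was low (-0.14) while Inha (0.029), Fstl3 (-0.0039) and Acvr2b (0.057) lay close to their own means. Within each group, 5 elongating spermatid markers summed highest in replicate 3, at 58108 TPM after anti-PD-L1 and 68025 TPM after IgG. They summed lowest in replicate 4, at 50627 TPM after anti-PD-L1 and 53412 TPM after IgG. TPM is a share of the whole, and the part of these transcripts in the member values was not tested. In bulk RNA, fewer cells of a type, less RNA per cell and more RNA from other cells cannot be told apart.

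**Figure D3:**
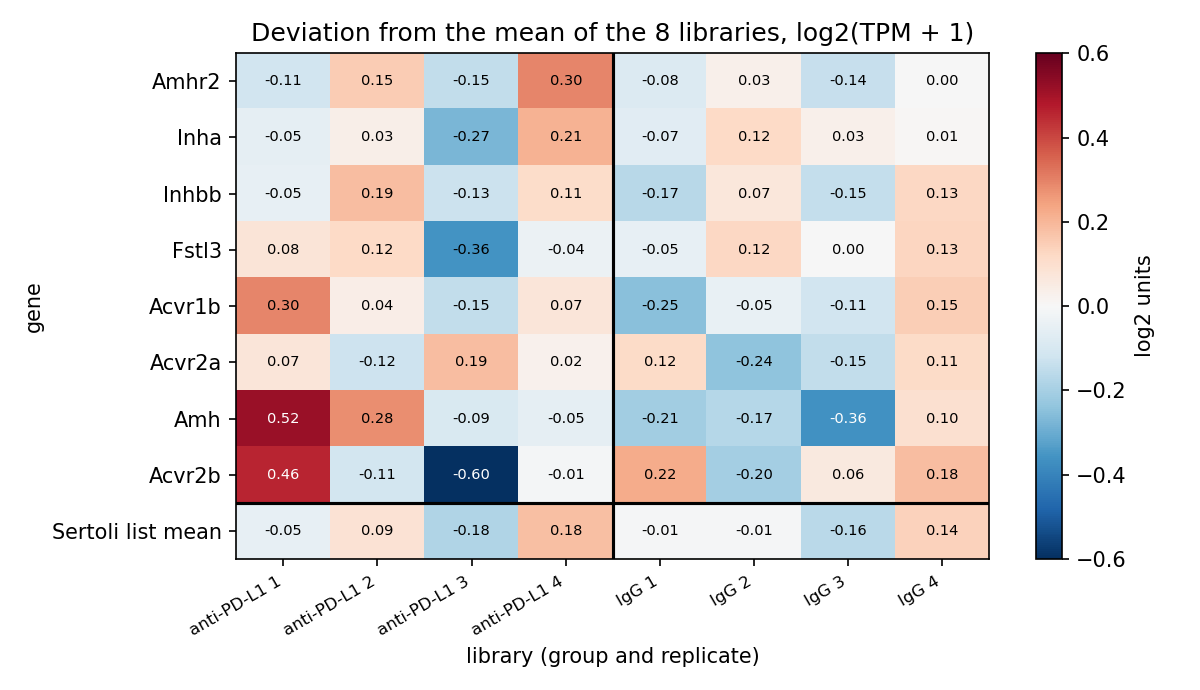
Deviation of each tested member (rows) from its mean over the 8 libraries (columns, anti-PD-L1 left of the line and IgG right of it), in log2(TPM + 1); the bottom row is the mean of 12 Sertoli cell markers. Anti-PD-L1 replicate 3 is low for Acvr2b (-0.60), Fstl3 (-0.36), Inha (-0.27) and the Sertoli mean (-0.18), and anti-PD-L1 replicate 1 is high for Amh (0.52), Acvr2b (0.46) and Acvr1b (0.30).

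The tested members were also taken relative to the Sertoli mean of the same library. Inha stood above that mean by 1.39 ± 0.05 log2 units after anti-PD-L1 and by 1.46 ± 0.15 after IgG, and Amhr2 by 2.31 ± 0.08 after anti-PD-L1 and 2.23 ± 0.08 after IgG (SD, n = 4 each). On this scale the spread among the anti-PD-L1 libraries was the narrower of the groups for Inha, and for Inhbb (SD 0.07 after anti-PD-L1 and 0.10 after IgG). It was the wider for Fstl3 (SD 0.17 and 0.10), Acvr2b (0.40 and 0.20), Acvr1b (0.20 and 0.13) and Acvr2a (0.27 and 0.15). Amh stood below the mean, at -3.39 ± 0.33 log2 units after anti-PD-L1 and -3.70 ± 0.08 after IgG (SD, n = 4 each). These values are descriptions, with no test, and bulk RNA does not show which cells the member transcripts came from.

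Among themselves the members did not follow one profile. Profiles over the 8 libraries were centred and divided by their own SD, and their root mean square difference was taken, 0 meaning the same shape. It ran from 0.55 for Amh and Acvr1b to 1.69 for Inha and Acvr2a over the 28 pairs, with 0.65 for Inha and Amhr2, 0.83 for Inha and Inhbb, and 1.23 for Amh and Amhr2. Among 13775 other genes with a proper symbol, the closest in profile to Inha were Mif, a cytokine (0.20), Cyp26b1, which clears retinoic acid (0.25), and Ctnnb1, the gene of beta-catenin (0.26), where the median gene was at 1.24. Closest to Inhbb were Mxi1, an antagonist of MYC (0.15), Gak, a kinase of clathrin uncoating (0.20), and Dlg3, a membrane scaffold (0.20), with a median of 1.14. The nearest to Amh were Zfp790, a zinc finger gene (0.19), Xrcc6, which encodes the Ku70 subunit of DNA end joining (0.23), and Arhgap42 (0.27), with a median of 1.13. With 8 libraries and this many genes, close profiles are to be found for any gene, and all points share the same libraries.

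Around the 10 members, a list of 45 other symbols of activin, AMH, BMP and TGF-beta signalling was examined. Of these 44 were found, 15 were below a mean of 1 TPM and 29 were tested, 19 higher and 10 lower, beside 11860 higher and 8483 lower over all genes tested. In limma with Benjamini-Hochberg adjustment over all genes 0 of 29 passed, and 3 of 29 had an unadjusted p under 0.05, beside 5.23% of all genes tested. Their median log2 difference was 0.061, beside 0.026 over all genes tested.

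Bambi, a pseudoreceptor that blocks activin, BMP and TGF-beta signals, had the smallest p of the list. It was at 13.0, 11.8, 10.8 and 9.59 TPM in the anti-PD-L1 libraries and at 8.06, 7.71, 7.10 and 9.69 TPM in the IgG libraries. The groups overlapped only through IgG replicate 4, which was just above anti-PD-L1 replicate 4. The log2 difference was 0.43 (SE 0.12, 95% confidence interval 0.15 to 0.71, adjusted p = 0.657 in limma with Benjamini-Hochberg adjustment).

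Smad4, the shared partner of the receptor-activated SMADs, was the 1 gene of the 29 tested whose groups did not overlap, beside 2.99% of all genes tested. It was at 13.8, 13.2, 12.6 and 12.6 TPM in the anti-PD-L1 libraries and at 12.1, 11.6, 10.4 and 11.3 TPM in the IgG libraries, a log2 difference of 0.19 (SE 0.077, adjusted p = 0.918 in limma). Bmp4, a BMP ligand, was lower, at 1.13, 0.58, 1.40 and 0.58 TPM in the anti-PD-L1 libraries and at 4.23, 2.96, 2.56 and 0.67 TPM in the IgG libraries. IgG replicate 4 fell among the anti-PD-L1 values. The log2 difference of Bmp4 was -0.82 (SE 0.34, adjusted p = 0.931 in limma), and -1.15 without IgG replicate 4.

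Beside Bmp4, the summed level of 7 adipocyte markers was between 9.02 and 14.1 TPM in the anti-PD-L1 libraries and between 12.7 and 99.1 TPM in the IgG libraries, highest in IgG replicate 1, where Bmp4 was highest too. In IgG replicate 2 the sum was 12.7 TPM, within the range of the anti-PD-L1 libraries, and Bmp4 was at 2.96 TPM, above all 4 of them. The part of these markers in the Bmp4 values was not tested, and without IgG replicate 1 the difference was -0.60. Smad6, an inhibitory SMAD, differed by 0.15 (SE 0.073), and Bmpr1b, a type I BMP receptor, by -0.29 (SE 0.15). Their adjusted p was 0.981 and 0.992 in limma with Benjamini-Hochberg adjustment, and the groups overlapped for both.

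**Figure D4:**
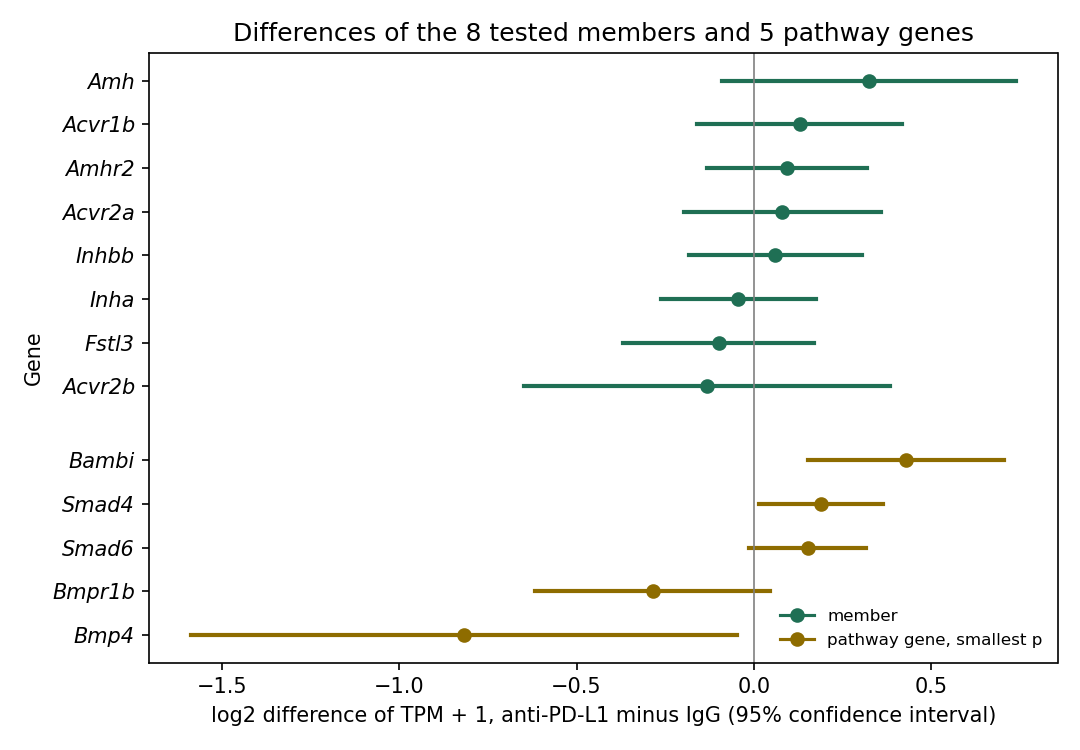
Log2 differences of TPM + 1, anti-PD-L1 minus IgG, with 95% confidence intervals from limma, for the 8 tested members (green) and the 5 genes of the pathway list with the smallest p (brown). The intervals of all 8 members include 0, the widest being those of Acvr2b (-0.65 to 0.38) and Amh (-0.090 to 0.74). Those of Bambi (0.15 to 0.71), Smad4 (0.014 to 0.36) and Bmp4 (-1.59 to -0.047) exclude 0, and those of Smad6 and Bmpr1b include it. The pathway genes were picked by their p, so their unadjusted intervals cannot be read like those of the members. No gene shown passed after adjustment over all genes.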

How the data were processed

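The deposited table gives TPM per gene for 8 libraries, per the file headers, with a gene length column and group means that were not used as samples. The tools RSEM, StringTie, HISAT2 and CASAVA 1.8 and the build mm10 are from the submitters' processing notes. What each tool did, the annotation release and whether strand was used are not given in the sources at hand, nor is any filter. Groups and replicate numbers came from the sample titles. Members and gene lists were chosen with earlier results of these data known.

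The 20343 genes that averaged 1 TPM or more were tested on log2(TPM + 1), a pseudocount of 1, in R 4.3.3 with limma 3.58.1 (intensity trend, group term, two-sided, Benjamini-Hochberg over all genes). The code was tested on simulated data. Named genes were all members, the 5 pathway genes with the smallest p, and the 3 genes closest in profile to each of Inha, Inhbb and Amh. Coordinates are from GENCODE M21 (GRCm38), which held 99.8% of the Ensembl identifiers, and promoter windows from RefSeq. Alternatives included another pseudocount, filters, scalings and weights, a replicate block and each library left out; TMM factors were computed directly on TPM, without weights and with 30% of M and 5% of A values trimmed, in place of the count tool first planned for them. Descriptions were computed in Python 3.11.15.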

Additional observations from a re-analysis of the deposited data

How the results depend on the processing

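With none of the 8 tested members past the threshold as designed, none passed under any of the 16 alternatives set at the start or the 1 added after seeing the data, the removal of both libraries that stand apart. The smallest adjusted p of a member, that of Amh, was 0.454 with array quality weights (limma, Benjamini-Hochberg), and over its alternatives the log2 difference of Amh ran from 0.091 to 0.46. Amh and Acvr2b could not be fitted with a filter of 5 TPM. Directions reversed without anti-PD-L1 replicate 3 for Inha (0.040), Fstl3 (0.0036) and Acvr2b (0.047), and with a smooth GC and length trend removed for Inhbb (-0.030). With each library left out in turn, Inha ranged from -0.12 to 0.040, Fstl3 from -0.15 to 0.0036 and Acvr2b from -0.31 to 0.047. Inhba, which was not tested, differed by -0.11, or by -0.48 with a pseudocount of 0.1. Leaving out single libraries moved Acvr1b between 0.053 and 0.20, Amhr2 between 0.010 and 0.16 and Acvr2a between 0.012 and 0.13. Over all genes, the count past the threshold of 0 became 1 with a pseudocount of 0.1, 1 with the GC and length trend removed, 5 with array quality weights and 8 without both libraries that stand apart, and ranged from 0 to 15 with one library left out, the highest without IgG replicate 4. Deviations of same-numbered libraries correlated from -0.20 to 0.10 over genes. The same number gave the highest correlation for replicates 2 (0.10) and 3 (0.090), and not for replicates 1 and 4. The check therefore does not settle whether the numbers pair the samples. With the replicate block 0 genes passed and Amh differed by 0.32 (adjusted p = 0.999 in limma). Depth is unknown, and the intervals of the members leave room for differences of the sizes they span.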

Other observations

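The pseudogene B230303A05Rik, which lies across the start of Inhba on the opposite strand (mm10 chromosome 13, 15813548 to 16023423), was singled out after its values were seen. It was at 3.97, 3.31, 4.06 and 3.42 TPM in the anti-PD-L1 libraries and at 5.79, 7.17, 4.76 and 6.38 TPM in the IgG libraries. All 4 anti-PD-L1 values were below all 4 IgG values, and 2.99% of all genes tested had groups that did not overlap. The log2 difference was -0.57 (SE 0.13, adjusted p = 0.632 in limma with Benjamini-Hochberg adjustment), which did not pass. Inhba itself was between 0.07 and 0.29 TPM in the same libraries.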
